A study of Mus musculus with 3 samples.

Results

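The cells described here were the 70 cells of the embryonic day 12.5 (E12.5) library with the highest score over Nanog, Elf3, Pdzk1, Bcat1 and Nrsn1, out of 4706 E12.5 cells (1.49%) and 19144 cells in all. The score was the mean of the 5 genes' deposited natural log values in a cell, so the members were chosen by measured values of these same cells. Single-cell RNA was measured with the 10x Genomics 3' kit, in which a unique molecular identifier (UMI) marks each captured RNA molecule, in 1 library each of E12.5, E14.5 and E16.5. The labels give all 3 libraries as female germ cells of C57BL/6 fetal gonads. They were isolated by flow sorting on EGFP from an Oct4-EGFP reporter (Oct4 is Pou5f1), whose construct, like the number of embryos pooled, is not given in the sources used here. There was no treatment and no other genotype. With 1 library per stage no test between groups was made. Every comparison below is a description of cells within 1 library, and its 95% intervals cover counting error only.

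Primordial germ cells are the embryonic precursors of eggs and sperm. On arrival in the gonad they still express pluripotency factors, Nanog and Pou5f1 among them, and in the ovary they silence these as they enter meiosis. Nanog is a homeobox transcription factor of the pluripotency network and is known to be required for germ cell development. Elf3 encodes an ETS-family transcription factor best known from epithelia, Pdzk1 a PDZ scaffold protein of epithelial membranes, Bcat1 the cytosolic aminotransferase of branched-chain amino acids, and Nrsn1 the neuronal vesicle protein neurensin.

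Promoter sequence is shown for the pair of scoring genes with the most UMIs, Nanog and Elf3, because the cells were sorted with an Oct4 reporter and OCT4 binds an octamer motif. The 250 bases before each RefSeq start site (GRCm38.p6) were searched on both strands for the octamer core ATGCAAA, shown in capitals (in its reverse complement for Nanog). For Nanog, the first of 2 start sites is shown. Its window is chr6:122707239-122707488 on the plus strand, and the Elf3 window is chr1:135258473-135258722 on the minus strand.
Nanog: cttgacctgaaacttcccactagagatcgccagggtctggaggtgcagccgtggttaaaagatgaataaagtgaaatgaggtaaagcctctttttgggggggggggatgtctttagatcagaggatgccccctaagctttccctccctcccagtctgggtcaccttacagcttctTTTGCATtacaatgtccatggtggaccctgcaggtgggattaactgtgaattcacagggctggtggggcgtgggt
Elf3: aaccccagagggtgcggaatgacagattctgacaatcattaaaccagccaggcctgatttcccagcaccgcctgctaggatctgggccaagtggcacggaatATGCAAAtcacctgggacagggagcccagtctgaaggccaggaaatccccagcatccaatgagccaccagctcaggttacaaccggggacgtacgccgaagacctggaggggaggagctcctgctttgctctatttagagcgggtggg
The core began 75 bases before the Nanog start and 148 bases before the Elf3 start. It was absent from these windows of Pdzk1, Bcat1 and Nrsn1. Of 32817 promoters of the same length, 1355 (4.13%) held it. A match of letters is a description and not a bound site.

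The highest score was 0.778, the members' median 0.434 and the lowest member's score 0.4075, and the next cell scored 0.4072. The median of the other 4636 cells was 0.144, and 470 cells (9.99%) had none of the 5 RNAs. The members are therefore the upper end of a range and not a separate class: 27 members lay within 0.02 above the lowest member's score and 22 other cells within 0.02 below it. Each cell held few of these RNAs. The 5 genes together gave 2 to 13 UMIs in a member (median 8) and 0 to 13 (median 2) in another E12.5 cell. UMIs of 2 scoring genes were found in 8 members, of 3 in 35, of 4 in 23 and of all 5 in 4. The combination of Nanog, Elf3 and Bcat1 was the most frequent, in 22 members, followed by these 3 with Nrsn1, in 16.

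Nanog contributed most to the score. Members held 0 to 8 Nanog UMIs (median 4) and other E12.5 cells 0 to 12 (median 1), so the ranges overlapped. Nanog had the largest ln value of the 5 genes in 60 of the 70 members, Elf3 in 7 and Bcat1 in 3. Summed over the members, Nanog stood at 184.5 counts per 1000000 UMIs (CPM; 163.1 to 208.0), against 60.6 in the other cells. For each member, the unused other E12.5 cell with the nearest number of detected genes was taken as its match, and in these 70 matched cells Nanog stood at 54.2 CPM. Elf3 stood at 74.4 CPM against 18.7 in other and 16.1 in matched cells, and 59 members held an Elf3 UMI. Bcat1 stood at 58.5 CPM against 10.9 and 10.7, with a UMI in 52 members. Nrsn1 stood at 31 CPM against 9.53 and 10.7, with a UMI in 40 members. Pdzk1, the rarest of the 5, stood at 9.64 CPM against 2.34 and 2.68 and was found as a single UMI in 14 members. These levels are what chose the cells and are no finding.

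Across the libraries the 5 RNAs belonged mainly to E12.5. Nanog stood at 62 CPM at E12.5, 3.19 at E14.5 and 0.215 at E16.5, and Elf3 at 19.3, 1.77 and 0.773 CPM. Bcat1 stood at 11.4, 1.33 and 1.55 CPM, Nrsn1 at 9.78, 0.902 and 1.86 CPM, and Pdzk1 at 2.43, 0.422 and 0.286 CPM. After each cell was thinned to 10000 UMIs, a Nanog UMI was found in 44.1% of 4608 E12.5 cells, 3.34% of 5654 E14.5 cells and 0.0938% of 4264 E16.5 cells (unthinned 75.9%, 3.21% and 0.242%). With 1 library each, the stage cannot be told apart from its library. In all, 173 cell barcodes (0.912% of the distinct ones) occurred in more than 1 library.

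The members were shallower than the other E12.5 cells. Their UMIs ran from 5592 to 35291 with a median of 21897.5, against a median of 26741 in the other cells and 21836.5 in the matched cells. Of the 70 members, 26 (37.1%) lay below 18913 UMIs, the depth that 10% of E12.5 cells fall short of, and 39 (55.7%) below the lower quartile. Under 10000 UMIs were 10 members (14.3%) and 1.9% of the other cells. On the ln scale 1 UMI was worth 1.03 in the shallowest member and 0.318 at the median depth of the E12.5 library, and the 10 members under 10000 UMIs held a median of 3 UMIs of the 5 genes, against 8 in the other 60. No E12.5 cell, member or not, had over 2 times the library's median depth.

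**Figure D1:**
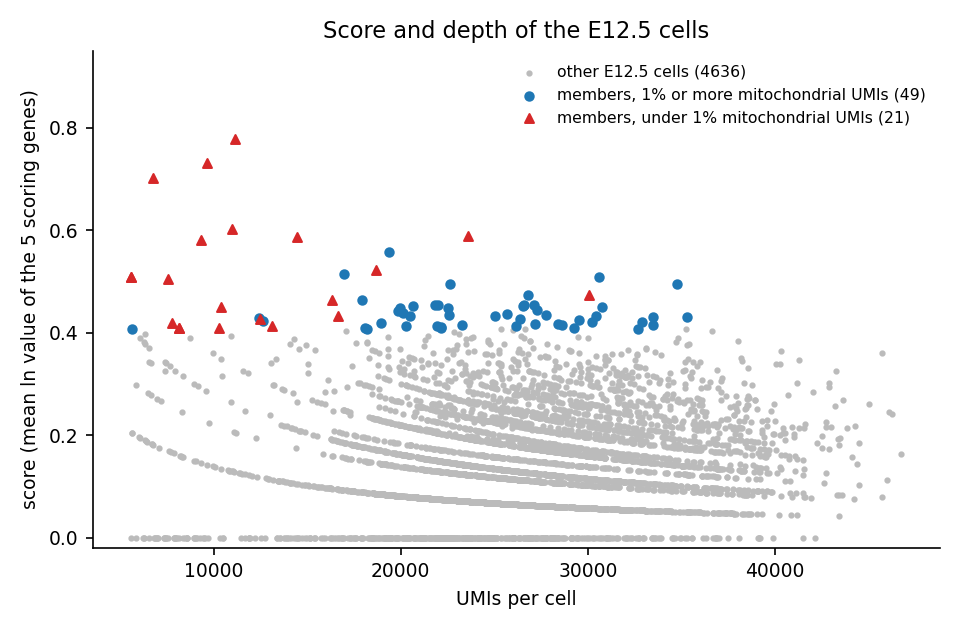
Each point is 1 E12.5 cell, with its UMIs on the x axis and its score (mean ln value of the 5 scoring genes) on the y axis. Other cells are grey, members with 1% or more mitochondrial UMIs are blue circles and members under 1% are red triangles. The curved rows of grey points are cells with the same few UMIs of the 5 genes, which score higher the shallower the cell. The members begin at 0.4075, and the cell of score 0.778 is a red triangle.

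The membership of single cells depended on sampling. Each E12.5 cell was thinned to 10000 UMIs in 10 random draws and the 70 highest cells were chosen again. Of the 60 members deep enough to enter, 19 to 27 (median 21.5) were chosen again in a draw. A pair of draws shared 10 to 20 of their 70 cells (median 14), 381 different cells were chosen at least once, and 1 cell was chosen in all 10. At equal depth the chosen cells were no longer shallow, with median depths before thinning of 24120.5 to 27217 UMIs.

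Each scoring gene was then read in the 70 cells ranked highest by the other 4, where it took no part in the ranking, although the 5 genes had been picked together on this library. Nanog stood at 85.9 CPM (139 UMIs) in the cells ranked by the other 4 genes, 49.9 in their matched cells and 61.7 in the rest, a ratio to the rest of 1.39 (1.17 to 1.65). Bcat1 stood at 21.7 CPM against 12.7 and 11.3, a ratio of 1.91 (1.29 to 2.74). For Elf3 the ratio was 1.36 (0.955 to 1.88), for Pdzk1 1.45 on 5 UMIs (0.466 to 3.41) and for Nrsn1 1.07 (0.595 to 1.77). The intervals of Nanog and Bcat1 lay above 1 and those of Elf3, Pdzk1 and Nrsn1 included it. In cells thinned to 10000 UMIs and ranked anew, the interval of Pdzk1 also lay above 1, again on 5 UMIs (3.56; 1.13 to 8.62). Without the cells under 1% mitochondrial UMIs described next, the ratio was 1.23 for Nanog (1.03 to 1.45) and 1.27 for Bcat1 (0.811 to 1.9). The joint occurrence of these RNAs in a cell was thus small beside the 3.05 to 5.38-fold differences that the choice of the members made.

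A group of the members stood apart in mitochondrial RNA. Mitochondrially encoded transcripts made up under 1% of the UMIs in 21 of the 70 members (30%; 19.6 to 42.1%), in 2 matched cells (2.86%) and in 59 of the 4636 other cells (1.27%; 0.97 to 1.64%). The step at 1% was set after the values were seen. No member and 20 of all E12.5 cells lay between 1% and 1.5%. Members therefore made up 26.2% of the 80 E12.5 cells under the step. These 21 members had a median of 0.196% mitochondrial UMIs and 10405 UMIs in all, and the other 49 had medians of 2.81% and 25015. The share of such cells went down with the score, from 30% in the members to 12.9% in the next 70 cells by rank, 5.71% in the next 140, 2.86% in the next 280 and 0.82% in the rest. Low mitochondrial share and low depth went together in the library, since 58 of the 80 cells had under 15000 UMIs, a depth that 208 E12.5 cells had in all.

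**Figure D2:**
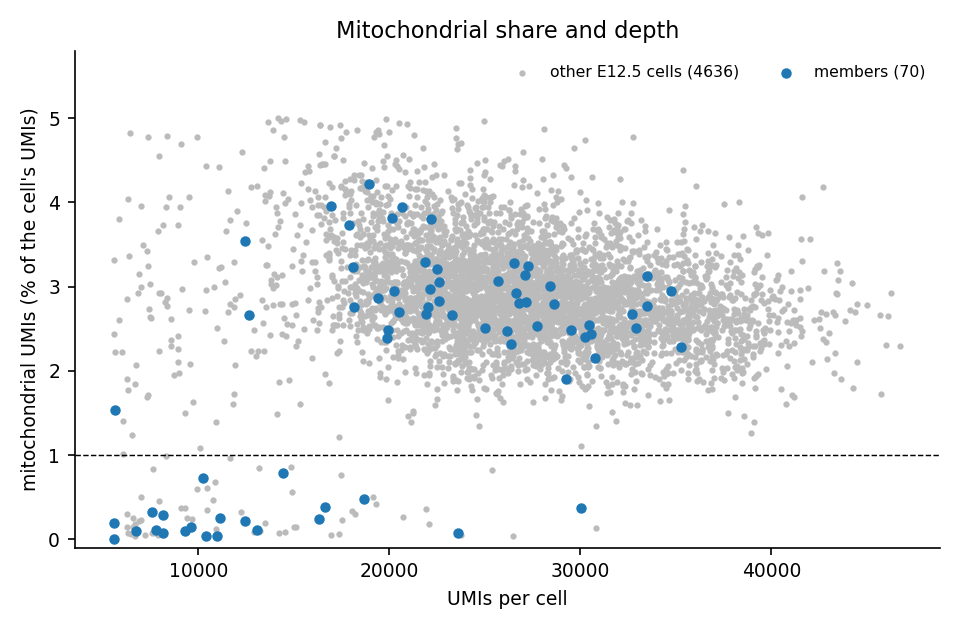
Each point is 1 E12.5 cell, with its UMIs on the x axis and the share of them from mitochondrially encoded genes on the y axis. Members are blue, other cells grey, and the dashed line is at 1%. Of the 70 blue points 21 lie under the line, most of them at under 15000 UMIs.

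The 59 other E12.5 cells under 1% were not chosen for the score, and Nanog and Elf3 were higher in them than in the rest. Nanog stood at 117.2 CPM in them and at 60.2 in the 4577 other cells of 1% or more, a ratio of 1.94 (1.56 to 2.4), and the ratio of Elf3 was 1.89 (1.23 to 2.77). Nrsn1 was at 1.99 (1.08 to 3.35), and the intervals of Pdzk1 (2.91; 0.937 to 6.86) and Bcat1 (1.36; 0.679 to 2.45) included 1. Malat1, a long noncoding RNA kept in the nucleus, stood at 643.8 CPM in these 59 cells and at 1644.5 in the 4577 (0.391; 0.357 to 0.428). It stood at 416.9 CPM in the 21 members under 1%. In the 49 members of 1% or more it stood at 1610.8 CPM (0.98; 0.936 to 1.02). For this reason the 24 named genes and the main lists below are given over all 70 members and, for most, again over the 49. Of the genes 2-fold apart described next, 5 of the 7 higher and 22 of the 31 lower were past 2-fold over the 49 against the 4577. Slamf1 (5.42), Gm15879 (7.24) and Tulp3 (2.34), which single cells set, were among these 5. The genes had been called on all 70 members, which include the 49, so these counts are no independent check. Whether the state of these cells, their depth or their biology set the values was not tested.

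Over the transcriptome the members were close to the other E12.5 cells. Of 6655 genes of 10 CPM or more, with the scoring genes left out, 7 (0.105%) were at least 2-fold higher in the members than in the other cells and 31 (0.466%) at least 2-fold lower. Against the matched cells the counts were 60 (0.902%) and 68 (1.02%). Against both, 3 genes were higher and 24 lower. Within 1.5-fold of the other cells were 94.8% of the 6655 genes and 99.3% of the 2615 genes of 50 CPM or more. Among those 2615 genes none was 2-fold higher and 1, the histone gene Hist1h2ap, was 2-fold lower. Its ratio of 0.473 moved inside 2-fold with other choices of members, to 0.593 with 100 members, 0.713 with members chosen on thinned cells and 0.875 with the scoring genes divided by their SD.

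**Figure D3:**
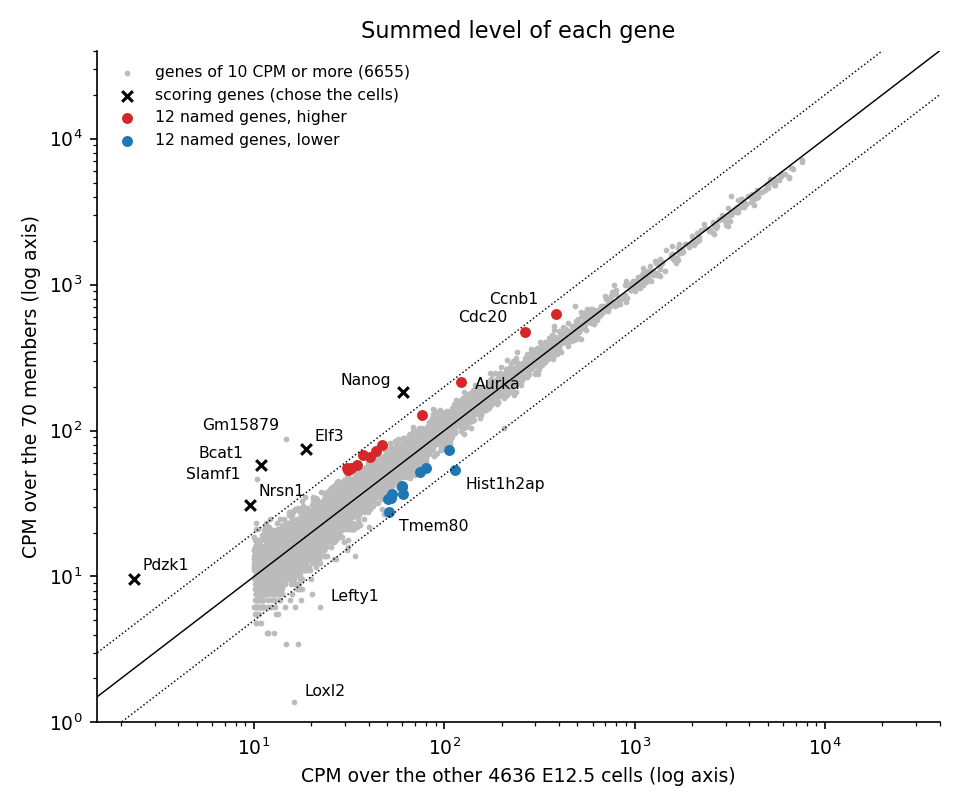
Each point is 1 gene, with its CPM summed over the other 4636 E12.5 cells on the x axis and over the 70 members on the y axis, both log axes. The solid line marks equal levels and the dotted lines 2-fold. Scoring genes are crosses, the 12 named genes in each direction are red (higher) and blue (lower). Apart from the scoring genes, the genes of 50 CPM or more over all E12.5 cells stay inside the dotted lines, except Hist1h2ap.

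The 7 genes past 2-fold upward were rare RNAs of 10.4 to 15.6 CPM over the library, and single cells set 3 of them. Slamf1, a receptor of the SLAM family, had 68 UMIs in the members, of which 64 came from 1 cell. Gm15879, a predicted gene, had 128 UMIs, of which 96 came from 1 cell. Tulp3, a protein of ciliary trafficking, had 31 UMIs, of which 19 came from 1 cell. Without that cell their ratios went from 4.49 to 0.27, from 5.99 to 1.53 and from 2.06 to 0.809. The other 4 were spread over 24 to 27 members each, at ratios of 2.03 for Acad9, a mitochondrial protein of complex I assembly, 2.03 for 2700038G22Rik, 2.04 for the cholesterol synthesis enzyme Nsdhl and 2.28 (1.57 to 3.2) for the centrosomal protein Lrrcc1. Without its highest member the ratio was 1.93 for Acad9, 1.77 for 2700038G22Rik, 1.85 for Nsdhl and 2.11 for Lrrcc1. Over the 49 members of 1% or more mitochondrial UMIs these were 1.84, 2.24, 1.73 and 2.36. Of these 4 genes only Lrrcc1 was past 2-fold in both of these settings. Against the matched cells Lrrcc1 was at 1.94, Acad9 at 3.19, 2700038G22Rik at 1.35 and Nsdhl at 1.61, so only Acad9 was past 2-fold there. Tmem80, which was lower in the members, had 40 UMIs there, 25 of them in 1 cell. Of the 31 genes past 2-fold downward, 27 had a UMI in fewer than 20% of the members.

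Several of the 12 higher genes named here encode proteins of mitosis. The share of such genes among all genes that could be named was not counted. By a fixed rule the 12 genes with the largest ratio were named among those of 50 CPM or more in the members, with a UMI in at least 20% of them and higher also than in the matched cells. Of these, Cdc20, Aurka, Kif18a, Bub1b, Kif23, Kif20a and Ccnb1 encode proteins of mitosis, while the largest ratios were those of Rhot1 and Calcoco2, which do not. Cdc20, Ccnb1, Aurka and Kif20a had 50 CPM or more over all E12.5 cells as well. The other 8, Kif18a, Bub1b and Kif23 among them, passed that minimum only through the members. They so had to be higher there, and their ratios are a description. Cdc20, the activator of the anaphase-promoting complex, had 0 to 26 UMIs in a member (median 9.5) and 0 to 41 in another E12.5 cell (median 6). Per 10000 UMIs the medians were 4.9 in members, 2.29 in matched cells and 2.15 in the others, and the ranges overlapped. Its summed level was 470.3 CPM in the members, 252.9 in the matched cells and 264.7 in the others, a ratio to the others of 1.78 (1.64 to 1.92). Over the 49 members of 1% or more mitochondrial UMIs it was 1.59 (1.45 to 1.73).

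Ccnb1, cyclin B1, was found in all 70 members at 1 to 49 UMIs (median 12) and in 99% of the other cells at 0 to 50 (median 9). It stood at 629.3 CPM in members, 378.0 in matched and 384.9 in other cells, a ratio of 1.64 (1.53 to 1.75), and of 1.4 (1.29 to 1.51) over the 49. Aurka, the Aurora A kinase of the spindle poles, stood at 214.1 CPM against 147.9 and 121.8, a ratio of 1.76 (1.57 to 1.97), and of 1.48 (1.29 to 1.69) over the 49. The kinesins Kif18a, Kif23 and Kif20a had ratios of 1.73, 1.69 and 1.67, and the spindle checkpoint kinase Bub1b 1.7. Over the 49 these 4 ratios were 1.39, 1.6, 1.42 and 1.49. The 49 are part of the 70 members that the named genes were picked on, so ratios over the 49 are a description too. In the 59 other cells under 1%, Ccnb1 and Aurka were 2.11 (1.95 to 2.29) and 2.01 (1.73 to 2.33) times as high as in the 4577.

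The remaining 5 genes of the upper 12 were Rhot1, Calcoco2, Hnrnph2, Gadd45a and Zmym1. Rhot1, the mitochondrial transport GTPase Miro1, stood at 55.8 CPM against 29.4 in matched and 30.8 in other cells (1.81; 1.43 to 2.26). Calcoco2, an autophagy receptor, stood at 67.5 CPM against 35.5 and 37.5 (1.8; 1.46 to 2.2). Over the 49 members the ratio was 1.66 (1.27 to 2.14) for Rhot1 and 1.77 (1.4 to 2.21) for Calcoco2. Both genes had been picked on cells that include the 49. Gadd45a, a growth arrest and DNA damage response gene, had a ratio of 1.65 (1.35 to 2), Hnrnph2, an RNA-binding protein, 1.72, and Zmym1, a zinc finger protein, 1.63. Over the 49 members Gadd45a was at 1.7, Hnrnph2 at 1.46 and Zmym1 at 1.3, the last with an interval of 0.998 to 1.67.

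The list of 24 G2 and mitosis genes was higher as a whole. In the members 22 of the 24 stood above the level of the other cells and none was 2-fold apart, with a median log2 ratio of 0.378 against 0.041 over all genes tested. Against the matched cells the median was 0.369, again with 22 of 24 above. The median over all genes tested, 0.041 against either group, is positive. Most genes tested thus stood above, by a share that was not counted. Counts above and below in each list therefore lack that background and are a description. Summed, they stood at 5395.5 CPM in members, 4117.6 in matched and 4078.7 in other cells, a ratio to the others of 1.32 (1.29 to 1.35), and of 1.24 (1.21 to 1.27) over the 49. Of the E12.5 cells in the top 10% by these UMIs per 10000 were 24 members (34.3%; 23.3 to 46.6%), 9 matched cells (12.9%) and 9.64% of the others, and below the library's median by these UMIs were 12 members (17.1%) against 50.5% of the others. Plk1, the polo-like kinase (1.56), Nusap1, a spindle protein (1.61), and Ube2c, the ubiquitin-conjugating enzyme of the anaphase-promoting complex (1.46), were among the higher members of the list. Mki67 (0.882) and Top2a (0.884), which are also made in S phase, were the 2 below 1. At equal depth, in cells thinned to 10000 UMIs, the median was 55.5 UMIs of the list in 60 members, 33 in 61 matched and 38 in 4548 other cells, with overlapping ranges of 14 to 116, 0 to 93 and 0 to 102. Free RNA that could add to such counts was not measured. The 60 members had been chosen before thinning. With members chosen on thinned cells the list's median log2 ratio to the other cells was 0.195.

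**Figure D4:**
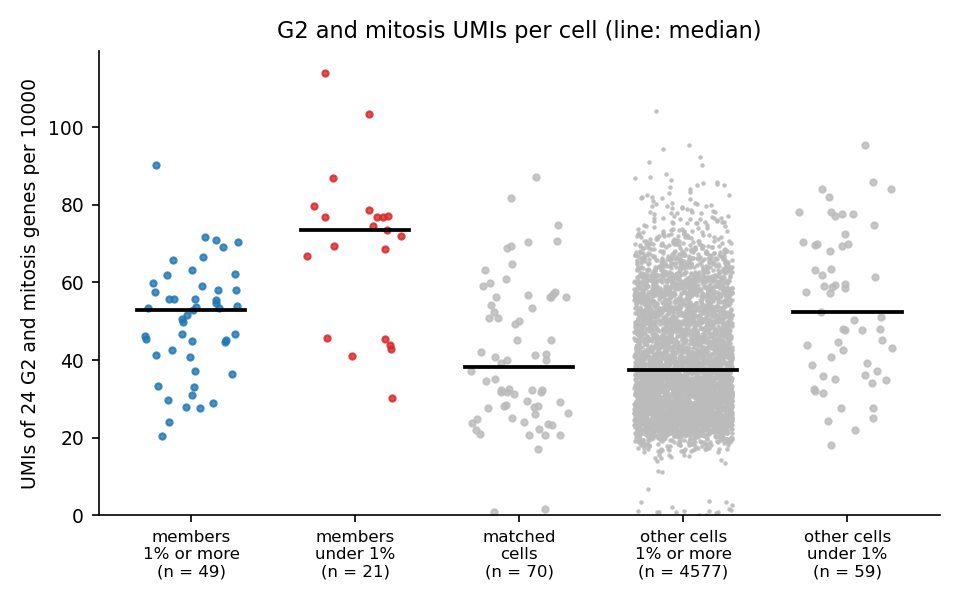
Each point is 1 E12.5 cell, with the UMIs of the 24 G2 and mitosis genes per 10000 UMIs of the cell on the y axis. Cells are split by group and, except for the matched cells, by the step at 1% mitochondrial UMIs, and black lines are medians. The medians are 53 in the 49 members of 1% or more, 73.5 in the 21 under 1%, 37.5 in the 4577 other cells and 52.5 in the 59 other cells under 1%, and the points overlap widely.

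Genes of S phase did not share this difference. Of 22 S phase genes of 10 CPM or more, 6 stood above and 16 below the other cells, with a median log2 ratio of -0.067. Their sum was 4105.2 CPM in members, 4291.5 in matched and 4349.2 in other cells (0.944; 0.92 to 0.968), and the ratio was 0.93 over the 49. Rrm2, a subunit of ribonucleotide reductase, stood at 152.2 CPM against 188.1 (0.809; 0.705 to 0.924), and Hells, a chromatin remodeller, at 378.0 against 445.9 (0.848; 0.778 to 0.922). Hist1h2ap, a replication-dependent histone gene, had a median of 0 UMIs in members and 2 in other cells. It stood at 53.7 CPM in members, 133.8 in matched and 113.5 in other cells, a ratio to the others of 0.473 (0.374 to 0.591), and of 0.55 (0.433 to 0.69) over the 49. In the 59 other cells under 1% mitochondrial UMIs, Hist1h2ap was at 0.201 (0.117 to 0.322) of the 4577. The S phase sum went the other way there, at 1.15 (1.11 to 1.19). In the members, Hist1h2ae was at 0.482 (0.263 to 0.81) and Dscc1, a cohesion factor of replication, at 0.487 (0.293 to 0.762). Replication-dependent histone RNAs largely lack a poly(A) tail, and the kit captures polyadenylated RNA.

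The other 11 genes of the lower 12 had ratios of 0.541 to 0.705. Tmem80, a membrane protein, had the ratio of 0.541 (0.386 to 0.738) over all members and of 0.208 without the 1 member that held 25 of its 40 UMIs. The next was Dnttip1, a subunit of a mitotic histone deacetylase complex, at 0.6 (0.449 to 0.786). Mthfd2, a mitochondrial folate enzyme, was at 0.661, Dnlz, a mitochondrial chaperone partner, at 0.665, and Mdm4, an inhibitor of p53, at 0.667. Hnrnpa0, Crlf2, Ube2r2, Sac3d1, Pet100 and Sdc4 ran from 0.688 to 0.705. Over the 49 members, part of the cells the genes were picked on, all 12 were below 1. The ratios ran from 0.55 for Hist1h2ap to 0.811 for the syndecan Sdc4. The intervals of Ube2r2 (0.603 to 1.03) and Sdc4 (0.615 to 1.05) then included 1. In the 59 other cells under 1% mitochondrial UMIs, Tmem80 was at 0.211, Hnrnpa0 at 0.291 and Sdc4 at 0.405 of the 4577, the lowest of these 11, while Crlf2 was at 0.993, Mthfd2 at 1.01 and Pet100 at 1.07.

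The levels varied by degrees along the score. From the members through the next 70, the next 140 and the next 280 cells to the rest, the G2 and mitosis sum was 5395.5, 4679.6, 4554.9, 4521.2 and 4024.6 CPM. Without the cells under 1% mitochondrial UMIs it was 5034.1, 4605.2, 4545.7, 4496.7 and 4019.8 CPM. Hist1h2ap ran the other way, at 53.7, 72.7, 77.6, 94.8 and 116.5 CPM. Cells just outside the members thus lay between them and the rest for each of these.

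**Figure D5:**
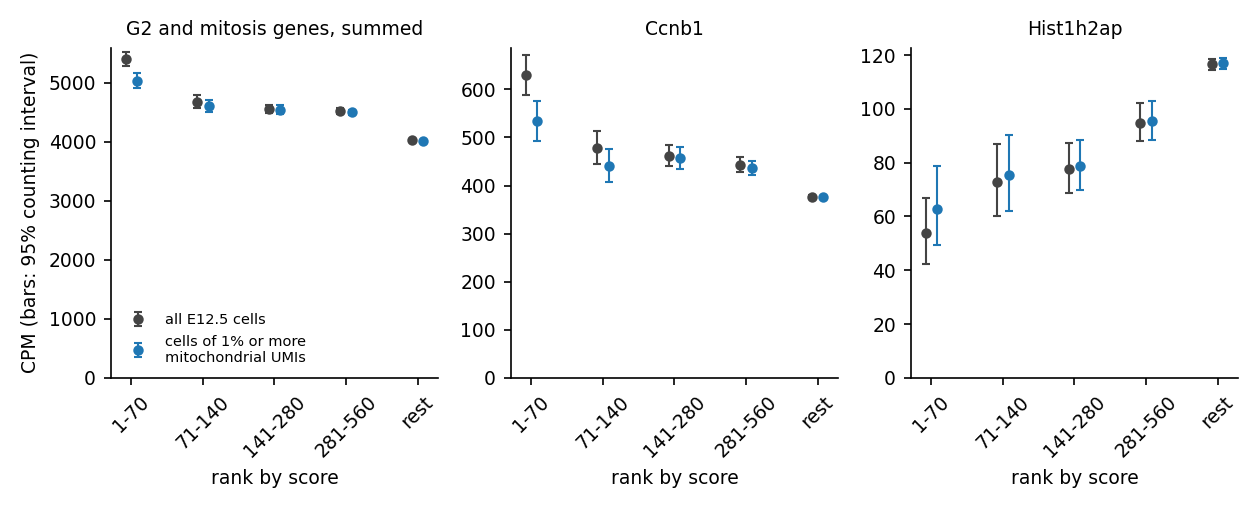
The x axis gives E12.5 cells in bins of rank by score, from the members (1-70) to the rest, and the y axes the summed CPM of the 24 G2 and mitosis genes, of Ccnb1 and of Hist1h2ap. Dark points are all cells, blue points cells of 1% or more mitochondrial UMIs, and bars are 95% counting intervals. Ccnb1 runs from 629.3 to 377.1 CPM over all cells, and Hist1h2ap from 53.7 to 116.5.

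Of the late cell cycle genes, the promoter of Cdc20 is shown because Cdc20 had the largest ratio of them. It was searched on both strands for the cell cycle genes homology region (CHR), TTTGAA, an element known from promoters of genes made in G2 and mitosis. The window is chr4:118437344-118437593 on the minus strand (GRCm38.p6), with the match in capitals.
Cdc20: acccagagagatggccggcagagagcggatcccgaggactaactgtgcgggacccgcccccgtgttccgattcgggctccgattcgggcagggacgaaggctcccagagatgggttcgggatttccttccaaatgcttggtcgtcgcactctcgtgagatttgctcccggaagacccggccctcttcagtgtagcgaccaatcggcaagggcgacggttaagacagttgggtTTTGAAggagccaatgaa
The match began 18 bases before the start, and 16% of the 32817 promoters hold these letters. Among the scoring genes, the first of the 2 Bcat1 entries also held it, 248 bases before its start. Nanog, Elf3, Pdzk1 and Nrsn1 did not, and nor did Aurka, a gene of mitosis like Cdc20.

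Other pluripotency factors differed little from the rest of the library. Pou5f1, whose reporter served for the sort, was found in all 70 members at 1 to 41 UMIs (median 14.5). It stood at 711.3 CPM in members, 699.9 in matched and 679.0 in other cells (1.05; 0.984 to 1.11). Sox2, its partner on DNA, stood at 225.8 CPM against 211.4 and 205.5 (1.1; 0.983 to 1.23). Both intervals included 1. Over the 49 members of 1% or more mitochondrial UMIs Pou5f1 was at 1.04 (0.975 to 1.12) and Sox2 at 1.19 (1.05 to 1.33), an interval above 1, and Sox2 was at 0.687 in the 59 other cells under 1%. Of 21 core and naive pluripotency factors of 10 CPM or more, 16 stood above and 5 below the other cells and none was 2-fold apart. Their median log2 ratio was 0.132, against 0.041 over all genes tested, and their sum 7466.0 against 7258.8 CPM (1.03; 1.01 to 1.05). The largest ratios of the list were those of Dppa2, a chromatin factor of pluripotent cells, at 89.5 against 61.3 CPM (1.46; 1.22 to 1.74), Klf2, a Krüppel-like factor of naive pluripotency (1.43), Esrp1, a splicing regulator (1.42), and Tcl1, a coactivator of AKT (1.34). Over the 49 members Dppa2 was at 1.24 (0.992 to 1.52).

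Early germ cell genes were near the level of the other cells too. Of 18 such genes 15 stood above and 3 below, with a median log2 ratio of 0.073 against 0.041 over all genes tested. Their sum was 9127.5 against 8694.9 CPM (1.05; 1.03 to 1.07). Dppa3 (Stella), a maternal factor that protects DNA methylation in the zygote, was found in all members at 7 to 69 UMIs (median 29) and stood at 1434.3 CPM in members, 1280.6 in matched and 1382.9 in other cells. Tfap2c, a transcription factor of germ cell specification, had the largest ratio of the list, at 131.5 against 97.6 CPM (1.35; 1.16 to 1.55), and 1.34 (1.14 to 1.57) over the 49. Of the lists on meiosis, meiotic entry had a median log2 ratio of -0.077 to the other cells (1 of 7 above) and of 0.074 to the matched cells (4 of 7 above), so its direction turned with the comparison, and synaptonemal complex and recombination had 0.01 to the other cells (4 of 8 above). Stra8, the gatekeeper of meiosis, was found in 2 members (2.86%), 5.71% of the matched cells and 4.55% of the other cells, as 2 UMIs in the members. The synaptonemal protein Sycp1 stood at 8.26 against 17.4 CPM (0.474; 0.245 to 0.83).

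Lefty1 and Lefty2 were low among the members, but the NODAL pathway as a whole was not. Of 8 NODAL and activin genes 4 stood above and 4 below the other cells, with a median log2 ratio of 0.08 and a sum ratio of 0.938 (0.852 to 1.03). Gdf3, a ligand of the pathway, was at 1.12 and Smad2, its signal transducer, at 1.24. Lefty1 and Lefty2, secreted inhibitors and targets of NODAL signalling, stood at 6.2 and 13.8 CPM in the members against 22.3 and 33.9 in the other cells, on 9 and 20 UMIs. Against the matched cells Lefty1 was at 0.237 (0.101 to 0.498) and Lefty2 at 0.71 (0.381 to 1.3). The library held cells with UMIs of Y-linked genes although it is labelled female: 3 members (4.29%; 0.893 to 12%), 6 matched cells (8.57%) and 664 other cells (14.3%). Lefty1 stood at 116.1 CPM and Lefty2 at 183.2 CPM in these 664 cells. In the other 3972 cells they stood at 5.44 and 7.16 CPM, and in the 67 members without a Y-linked UMI at 5 and 9.99 CPM. The ratios without cells with a Y-linked UMI were 0.918 (0.367 to 1.9) for Lefty1 and 1.4 (0.759 to 2.36) for Lefty2, so the difference was not seen there. Elf3 and Bcat1 were lower in the 664 cells (9.69 and 5.4 CPM) than in the 3972 (20.3 and 11.9), and Nanog was close (58.6 and 61). Cdc20 and Hist1h2ap kept ratios of 1.71 and 0.488 without these cells. Nodal itself was at 8.95 CPM in members and 8.81 in the others.

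Loxl2 and Aldh1a3 were scarcer in the members with or without cells with a Y-linked UMI. Loxl2, a lysyl oxidase of the extracellular matrix, had 2 UMIs in the members, 1.38 CPM against 16.3 (0.0845; 0.0102 to 0.306). Its UMIs in the other cells came from 560 cells, up to 74 in 1 cell. Aldh1a3, an enzyme of retinoic acid synthesis, had 5 UMIs, 3.44 CPM against 17 (0.202; 0.0657 to 0.473), and up to 56 in 1 of the other cells. Without cells with a Y-linked UMI the ratios were 0.0816 and 0.211. In the matched cells Loxl2 stood at 8.7 CPM and Aldh1a3 at 11.4. The scarcity was not particular to the members. In the 59 other cells under 1% mitochondrial UMIs, Loxl2 was at 0.164 and Aldh1a3 at 0.237 of the 4577.

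Lists of metabolism, epithelial and stress genes were small, and at the background shares of 0.105% and 0.466% few or no genes past 2-fold against the other cells would be counted in them, and none was. Over all genes tested the median log2 ratio was 0.041, and the share of them above the other cells was not counted. Of 10 genes of branched-chain amino acid metabolism, the pathway of Bcat1, 8 stood above the other cells (median log2 ratio 0.15). Hibch, of valine breakdown, had the largest ratio, at 29.6 against 17 CPM (1.74; 1.26 to 2.35). Against the matched cells 5 of the 10 stood above, with a median of 0.011. Of 10 epithelial partners of Elf3 and Pdzk1, 6 stood above (median 0.147), with Cldn3, a tight junction protein, at 17.9 against 10.6 CPM (1.69; 1.1 to 2.49) and Epcam at 1.08. Of 10 immediate-early and heat shock genes 9 stood above the other cells (median 0.158) and 7 above the matched cells (median 0.061). Fos, an immediate-early transcription factor, stood at 17.2 CPM in members, 45.5 in matched (0.378; 0.229 to 0.606) and 23.8 in other cells (0.723; 0.467 to 1.07). The chaperone Hspa8 stood at 4058.4 CPM against 3205.6 in matched and 3192.4 in other cells (1.27; 1.24 to 1.3), at 1.15 (1.12 to 1.19) over the 49 members and at 1.61 (1.56 to 1.66) in the 59 other cells under 1% mitochondrial UMIs. Nuclear genes of oxidative phosphorylation had 9 of 30 above (sum ratio 0.942; 0.961 over the 49), and glycolysis 13 of 18 above (sum ratio 1.03).

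The members carried germ cell RNAs at the level of the other cells. The 28 germ cell markers summed to 11116.8 CPM in members, 10668.6 in matched and 10916.4 in other cells, and none of them was at 0 in the members. None of the 70 members (up to 5.13%) had UMIs of 5 or more of the pregranulosa markers, genes of the supporting cells that surround germ cells in the ovary, against 2 matched cells and 23 other cells (0.496%). The pregranulosa list summed to 8.95 CPM in members, 93 in matched and 19 in other cells, 14 of its 18 measured genes were at 0 in the members, and Fst was among them (0 UMIs). A member held at most 0.608 UMIs of this list per 10000. Erythroid markers were at 0 in the members, and the markers of surface epithelium (6.89 CPM), interstitial cells (7.57) and blood cells (4.13) were low there and in the other cells (7.32, 10.2 and 6.15). Lists of endothelial, mesonephric and neural markers were not low, at 103.3, 256.8 and 28.9 CPM in members against 102.2, 247.3 and 30 in other cells, with a UMI in 53, 64 and 29 members. Pecam1, an adhesion protein of endothelium, alone stood at 71.6 CPM. Epcam made up most of the mesonephric sum, at 244.4 CPM in members and 225.4 in other cells. It had a UMI in 96.6% of the other cells. Lhx1 of the same list stood at 6.89 against 17.6 CPM. The part of these markers in the results was not tested. Doublets were neither called nor removed.

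The same score singled out fewer and lower cells in the other libraries. These scores were not thinned, and the libraries differed in depth, with medians of 26691.5 UMIs at E12.5, 10960 at E14.5 and 12659 at E16.5. The 70 highest cells had a median of 14202.5 UMIs at E14.5, against 10940 in the rest. At E16.5 these medians were 9448.5 and 12687. At E14.5, 2 cells (0.022%) reached the E12.5 members' lowest score, and 92.7% of cells scored 0. At E16.5 no cell did (up to 0.0688%), and 94.4% scored 0. The 70 highest E14.5 cells, whose scores ran from 0.179 to 0.447, had Pou5f1 at 377.4 CPM against 181.8 in matched cells and 157.5 in the rest (2.4; 2.15 to 2.66), and Dppa3 at 1149.0 against 477.2 and 419.7. Stra8 stood at 429.2 CPM in them against 1527.5 and 1448.8 (0.296; 0.268 to 0.327), and the summed meiotic entry genes at 2017.9 against 5852.7 CPM in the rest. Ccnb1 was at 209.3 against 58.8 CPM (3.56; 3.07 to 4.1) and Cdc20 at 280.1 against 116.0. Aurka (2.67), Bub1b (1.92) and Kif20a (1.86) were also higher than in the rest. Kif23 was lower (0.658; 0.477 to 0.884), and the interval of Kif18a included 1 (0.886; 0.567 to 1.32). The summed G2 and mitosis genes were at 1.52 (1.46 to 1.57). Cells with 5 or more pregranulosa markers were 3 of the 70 (4.29%) and 1.67% of the rest there, and cells under 1% mitochondrial UMIs 4.29% and 2.55%. At E16.5 the 70 highest cells held 5 Nanog UMIs and 46 Nrsn1 UMIs in all. Cdc20 was at 71.4 against 63.2 CPM there (1.13; 0.853 to 1.47). Ccnb1 was at 38.3 against 14.7 CPM on 30 UMIs (2.6; 1.75 to 3.74). The intervals of Aurka, Kif18a, Bub1b, Kif23 and Kif20a included 1, and the summed G2 and mitosis genes were at 1.09 (1.03 to 1.14). Whether the libraries differ in these contrasts was not tested.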

How the data were processed

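A library was made from each of the 3 stages, and the table used holds 14133 genes by 19144 cells. Reads were processed with Cell Ranger 2.0.0 and FastQC against mm10, per the submitters' processing notes. For cell filters and other settings, the sources used here give nothing. As the deposited table's own values show, the authors scaled each cell to 10000 UMIs, added 1 and took the natural log. Undoing the log gave whole UMIs for 100% of non-zero values (tolerance 0.01, largest distance 0.000258). All columns were mapped to a library. Embryos pooled per library are not given, so nothing measures the spread between animals.

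The members and gene lists were chosen with earlier results of these data known. UMIs were summed over the members, the other 4636 E12.5 cells and 70 matched cells (nearest number of detected genes, largest gap 22), and divided by the group's total UMIs (1452310, 124196002 and 1494568) to give CPM. Genes of 10 CPM or more over all E12.5 cells were compared. CPM carry exact Poisson intervals, ratios conditional binomial (Clopper-Pearson) intervals and shares of cells exact binomial intervals, all at 95%. They cover counting error only, and cells of 1 library are not replicates. Named were the 12 genes with the largest and the 12 with the smallest ratio to the other cells, of at least 50 CPM and with a UMI in at least 20% of cells in the higher group, and on the same side of 1 against the matched cells. Scoring, mitochondrial, ribosomal protein and haemoglobin genes and symbols of the Gm and Rik series were left out of these. Of each list the 2 genes of highest CPM and the one with the ratio farthest from 1 could be named, with 10 genes set by name. Plk1, Nusap1, Klf2, Esrp1, Tcl1, Hells, Dscc1, Hist1h2ae, Sycp1, Loxl2, Aldh1a3 and the 7 genes at least 2-fold higher were named after their values were seen, as were the step at 1% mitochondrial UMIs and the alternatives that use it.

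No doublets were removed and no caller was run. Alternatives changed the number of members, the scaling, the matching, the filter on low genes and the depth, and left out cells with a Y-linked UMI, 5 or more pregranulosa markers or the deepest 5%. The calculation was tested on simulated counts. Promoter sequences are from RefSeq (GRCm38.p6). Python 3.11.15, numpy 2.4.6, scipy 1.17.1, pandas 2.3.3 and matplotlib 3.10.9 were used.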

Additional observations from a re-analysis of the deposited data

How the results depend on the processing

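Counts of genes at least 2-fold apart moved with most settings, and 26 of 62 values stayed within 1.5 times the reported one. In the order higher than other cells (7), lower than other cells (31), higher than matched cells (60) and lower than matched cells (68), they were 14, 62, 106 and 121 with the mean over cells of CPM, 11, 67, 116 and 126 with 50 members, and 2, 16, 23 and 32 with 100. They were 0, 1, 0 and 2 for genes of 50 CPM or more, 634, 478, 796 and 709 with no filter beyond 1 UMI in each group, 41, 151, 272 and 217 in thinned cells, and 0, 14, 37 and 29 with members chosen on thinned cells. With scoring genes divided by their SD they were 3, 20 and, lower than matched cells, 41. Ratios divided by the median ratio gave 4 higher than other cells. With 5 matched cells per member 11 were higher than matched cells. Of the settings chosen after seeing the data, leaving out cells under 1% mitochondrial UMIs gave 94 higher than matched cells, choosing members anew without them 3 higher than other cells, and matching within the same side of 1% gave 44 lower than matched cells. The cause was not tested.

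Pdzk1 in cells ranked by the other 4 genes was at 3.56 on thinned cells, and Bcat1 at 1.27 without cells under 1% mitochondrial UMIs. Lefty2 turned to 1.4 without cells with a Y-linked UMI. Stra8, on 2 UMIs, turned to 1.34 as a mean over cells of CPM and to a difference of 0.00386 in mean ln value. Ratios of the 12 higher genes ran from 1.06 to 2.04 and those of the 12 lower genes from 0.428 to 0.986, and since the genes were picked for their ratios in these cells, their direction is no sign of stability. Hist1h2ap was at 0.661 with members chosen anew without cells under 1%. The median log2 ratio of G2 and mitosis genes, reported at 0.378, ran from 0.195 to 0.455. It was lowest with members chosen on thinned cells (0.195) and with scoring genes divided by their SD (0.201). Of the 70 members, 38 were kept with scoring genes divided by their SD and 24 when chosen on thinned cells.

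No paired analysis was possible because each stage has 1 library. At 2 to 13 UMIs of the scoring genes a member, depth limits which single cells are chosen.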
